A study of Mus musculus with 16 samples.

Results

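Lipogenic transcription factors and their regulators were followed as a set of 9 genes, chosen by name, among the 23179 genes listed for mouse mammary adipose tissue. They are Srebf1, Mlxipl, Nr1h3, Nr1h2, Scap, Insig1, Insig2, Thrsp and Mid1ip1, and all 9 passed the filter on low values. RNA-Seq had been run on 16 libraries, 4 from each of 4 groups of wild-type ("wt") female C57BL/6N (C57BL/6NCrl in the methods) mice that were 8 weeks old on arrival. CON-LFD mice were kept on a low-fat diet with 10% of kcal from fat throughout and had a sham operation. The other mice were first made obese on a diet with 60% of kcal from fat for 15 weeks. DIO-HFD mice then had a sham operation and stayed on the high-fat diet, DIO-LFD mice had a sham operation and were moved to the low-fat diet, and DIO-VSG mice underwent vertical sleeve gastrectomy, the removal of much of the stomach, and were moved to the low-fat diet. All mice were injected in a mammary fat pad with cells of E0771, a mouse mammary cancer line, 22 weeks after randomization to diet, and the fat pad of the opposite side was collected about 4 weeks later. Each library carried its own animal number. DIO-HFD mice were the only mice eating the high-fat diet at collection, so obesity and the diet of the moment cannot be told apart in comparisons with that group.

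Srebf1 encodes the SREBP-1 factors, which are made as precursors in the membrane of the endoplasmic reticulum. SCAP escorts the precursor to the Golgi apparatus, where proteases release the active part, and the INSIG proteins hold SCAP back when sterols are abundant. Mlxipl encodes ChREBP, a factor that responds to products of glucose metabolism, and Nr1h3 and Nr1h2 encode the oxysterol receptors LXRα and LXRβ, which act with RXR partners and can switch on Srebf1. Active SREBP-1 and ChREBP drive the enzymes of fatty acid synthesis in liver and adipose tissue. Thrsp (Spot 14) and its relative Mid1ip1 encode small proteins of the lipogenic program, and the Mid1ip1 protein is known to bind acetyl-CoA carboxylase and promote its assembly into filaments.

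RefSeq promoter windows on GRCm38.p6 were found for 9 of the 9 genes, 16 windows in all, and the 250 bases before each start were searched on both strands for 5 short motifs. The sequences shown are windows of Srebf1, Mlxipl, Insig1 and Thrsp, which the results below turn on, and, for contrast, one window of Scap, a gene with little range. Each is written 5′ to 3′ on the strand of the gene in lower case, with capitals for matches to the SREBP site TCACNCCAC, the E-box CACGTG bound by ChREBP among others, the LXR direct repeat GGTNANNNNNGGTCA and the CCAAT box CCAAT, in either orientation.
Srebf1, internal start, chr11:60210472-60210721, minus strand: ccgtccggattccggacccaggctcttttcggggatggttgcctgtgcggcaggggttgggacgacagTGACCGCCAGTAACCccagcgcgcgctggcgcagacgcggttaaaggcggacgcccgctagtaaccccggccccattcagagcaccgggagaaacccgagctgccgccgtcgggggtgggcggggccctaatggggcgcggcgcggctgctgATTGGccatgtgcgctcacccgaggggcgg
Mlxipl, first RefSeq window, chr5:135106641-135106890, plus strand: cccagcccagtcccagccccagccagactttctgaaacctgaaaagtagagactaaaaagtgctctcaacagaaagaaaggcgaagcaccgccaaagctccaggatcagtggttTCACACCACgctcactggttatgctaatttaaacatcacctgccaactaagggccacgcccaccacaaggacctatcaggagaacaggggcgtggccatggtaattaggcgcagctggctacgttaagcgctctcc
Mlxipl, second RefSeq window, chr5:135089640-135089889, plus strand: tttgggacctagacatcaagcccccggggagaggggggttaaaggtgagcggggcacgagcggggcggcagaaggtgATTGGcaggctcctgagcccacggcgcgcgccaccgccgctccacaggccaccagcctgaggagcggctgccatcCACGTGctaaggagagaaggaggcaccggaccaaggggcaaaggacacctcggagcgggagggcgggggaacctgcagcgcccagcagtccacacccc
Insig1, chr5:28071162-28071411, plus strand: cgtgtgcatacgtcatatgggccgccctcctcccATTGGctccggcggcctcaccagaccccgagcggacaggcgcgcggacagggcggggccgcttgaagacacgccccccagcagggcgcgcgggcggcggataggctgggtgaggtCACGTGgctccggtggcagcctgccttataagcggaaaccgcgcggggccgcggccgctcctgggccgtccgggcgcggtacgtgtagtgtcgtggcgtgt
Thrsp, chr7:97417551-97417800, minus strand: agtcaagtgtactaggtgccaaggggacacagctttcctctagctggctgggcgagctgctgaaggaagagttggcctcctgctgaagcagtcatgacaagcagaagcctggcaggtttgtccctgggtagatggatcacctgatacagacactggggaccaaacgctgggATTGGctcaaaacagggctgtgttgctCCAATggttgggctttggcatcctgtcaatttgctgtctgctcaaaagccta
Scap, second RefSeq window, chr9:110333106-110333355, plus strand: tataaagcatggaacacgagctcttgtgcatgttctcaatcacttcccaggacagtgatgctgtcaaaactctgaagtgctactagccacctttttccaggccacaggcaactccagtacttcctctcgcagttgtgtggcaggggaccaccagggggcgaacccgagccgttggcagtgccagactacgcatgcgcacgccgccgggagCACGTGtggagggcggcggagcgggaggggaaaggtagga

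The internal Srebf1 window held the LXR repeat, on the strand opposite to the gene, from 182 to 168 bases before the start. Among all 32851 windows of this length, 0.177% held that repeat, and among the 16 windows of the set it was found in 1. The SREBP site was found in 1 of the 16 windows, the first of Mlxipl, at 136 to 128 bases before the start, and in 1.05% of all windows. The E-box was found in 3 of the 16 windows, those of Mlxipl, Insig1 and Scap shown above, and in 6.02% of all windows. The CCAAT box was found in 6 windows from 5 of the genes, and in 33.8% of all windows. A GC box, GGGCGG, which was not capitalized, was found in 8 windows from 6 genes and in 32.7% of all windows. No match in these windows overlapped another. Thrsp had CCAAT boxes only, at 79 to 75 and at 52 to 48 bases before the RefSeq start, and GENCODE M21 places the start of its coding transcript at 97417730, inside the printed stretch. A match of letters is a description and was not tested against the expression values. Counts were summed over each gene, so transcripts from different starts of Srebf1 or Mlxipl were not separated.

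Levels were compared as normalized counts, that is, reads divided by the size factor of each library. The libraries held between 46907377 and 57610899 reads, and the recovered reads of the 9 genes ranged from 1092 for Mid1ip1 to 41547 for Thrsp in a single library. The SD between libraries of a group exceeded the counting error expected from such numbers for every gene except Scap in DIO-HFD and DIO-LFD. In bulk tissue, fewer cells of a type and less RNA per cell cannot be told apart. Per kilobase of the longest coding transcript, the mean over the 16 libraries was highest for Thrsp (12015.8 ± 9709, SD over libraries), followed by Insig1 (3309 ± 2079) and Srebf1 (2753 ± 817). Nr1h2 (1917 ± 103), Nr1h3 (1462 ± 454) and Mlxipl (1321 ± 496) came next, and Insig2 (870.4 ± 112), Scap (844 ± 40.3) and Mid1ip1 (689 ± 160.4) were lowest. Except between Srebf1 and Nr1h2 and between Nr1h2 and Nr1h3, neighbours in this order differed by less than the larger SD of the pair. The genes also differed in how much they varied. The highest library was 33.6 times the lowest for Thrsp, 8.58 times for Insig1, 4.35 times for Mlxipl, 3.18 times for Nr1h3 and 3.14 times for Srebf1, but only 1.18 times for Nr1h2 and 1.22 times for Scap.

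**Figure D1:**
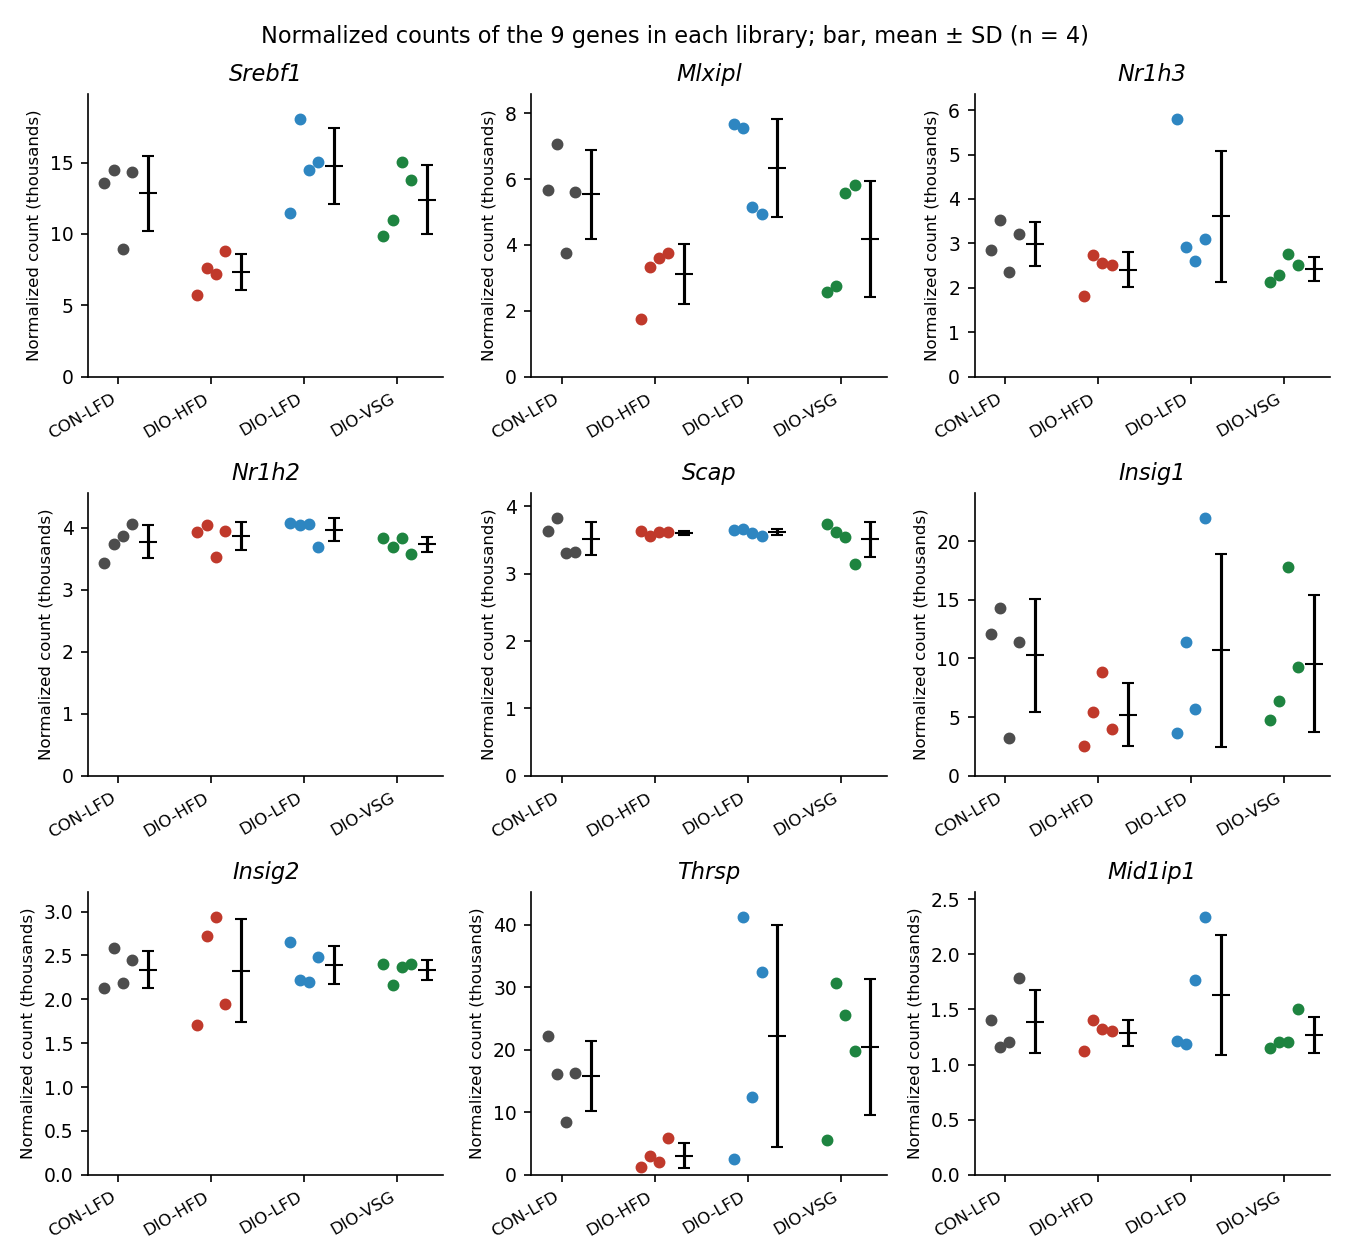
Normalized counts (scaled as the axis labels say, vertical axes from 0) of the 9 genes in each of 16 libraries, by group, with black bars for mean ± SD (n = 4). All 4 DIO-HFD libraries lie below the 12 others for Srebf1, whereas the groups overlap throughout for Nr1h2 and Scap.

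Srebf1 (GRCm38 chr11:60199089-60222581, minus strand, protein coding) had its lowest values in DIO-HFD. The 4 DIO-HFD libraries held 5739, 7626, 7174 and 8827 normalized counts in order of replicate, and the CON-LFD libraries 13582, 14505, 8923 and 14319. DIO-LFD libraries were at 11485, 18029, 14502 and 15033, and DIO-VSG libraries at 9866, 10960.5, 15065 and 13749. Every DIO-HFD library was thus below each of the 12 low-fat fed libraries, although CON-LFD replicate 3 lay close above DIO-HFD replicate 4. Of the 9 genes Srebf1 alone had this order, which 0.438% of the 21218 genes tested had. The mean was 7341 ± 1276 (SD, n = 4) in DIO-HFD relative to 12832 ± 2636 in CON-LFD, which is −0.80 on the log2 scale (SE 0.19, 95% CI −1.21 to −0.38). Relative to DIO-HFD, the log2 fold change was 0.75 (SE 0.19, 95% CI 0.34 to 1.17) in DIO-VSG, with a mean of 12410.1 ± 2409, and 1.01 (SE 0.19, 95% CI 0.59 to 1.42) in DIO-LFD, with a mean of 14762 ± 2681. In limma-trend these differences had unadjusted P values of 0.00106, 0.00162 and 0.000133, and adjusted P values of 0.182, 0.246 and 0.296, so none passed the threshold of 0.05 over all genes. The exact two-sided permutation test gave P = 0.0286 for each of them, the smallest value that 4 against 4 libraries allow, and 0.257 after adjustment over the 54 such tests. Without CON-LFD replicate 3 the first difference was −0.96 with a limma adjusted P value of 0.040, and over all 26 alternatives its adjusted P value ranged from 0.0164 to 0.543. With a weight estimated for each library the differences were −0.62, 0.54 and 0.80, with limma adjusted P values of 0.0164, 0.0125 and 0.00639, and in that fit DIO-HFD replicate 4 had a weight of 10.9 and the other libraries of 0.222 to 2.35.

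Among the 3 low-fat fed groups the estimates for Srebf1 were small. The log2 fold change was −0.04 (95% CI −0.46 to 0.37) for DIO-VSG relative to CON-LFD, 0.21 (95% CI −0.21 to 0.63) for DIO-LFD relative to CON-LFD and −0.25 (95% CI −0.67 to 0.16) for DIO-VSG relative to DIO-LFD, and the groups overlapped in each. Over the 4 groups, the moderated F statistic of Srebf1 was 10.3 (limma unadjusted P = 0.000744, adjusted P = 0.270). An unadjusted P value below 0.05 in this test was reached by 12.7% of genes, and by 3 of the 9, Srebf1, Thrsp (F 5.34, adjusted P = 0.357) and Mlxipl (F 4.48, adjusted P = 0.376). Exons of Srebf1 overlap those of Rai1 on the opposite strand, which averaged 4198 normalized counts. Mlxipl, Scap and Mid1ip1 each overlap a gene on the opposite strand that averaged below 70 normalized counts. The library kit keeps strand, but whether counting used it is not given in the sources used here.

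Mlxipl (chr5:135089890-135138382, plus strand, protein coding) was also low in DIO-HFD, at 1765, 3317, 3598 and 3754 normalized counts. CON-LFD libraries held 5660.3, 7072, 3768 and 5621, and DIO-LFD libraries 7674, 7549, 5141 and 4951. All DIO-HFD values were below all CON-LFD and DIO-LFD values, although the highest DIO-HFD library and CON-LFD replicate 3 were nearly level. DIO-VSG libraries split into 2 low values, 2559 and 2743, within the DIO-HFD range, and 2 higher values, 5573 and 5832. Relative to CON-LFD, the log2 fold change in DIO-HFD was −0.86 (SE 0.32, 95% CI −1.54 to −0.18, limma unadjusted P = 0.0173, adjusted P = 0.283). Relative to DIO-HFD, it was 1.06 (SE 0.32, unadjusted P = 0.00495, limma adjusted P = 0.451) in DIO-LFD and 0.38 (SE 0.32, unadjusted P = 0.248, limma adjusted P = 0.539) in DIO-VSG. DIO-VSG and DIO-LFD differed by −0.67 (95% CI −1.35 to 0.01, limma unadjusted P = 0.0522, adjusted P = 0.509), so the 2 ways of losing weight were not shown to differ in Mlxipl. Without DIO-HFD replicate 1, Mlxipl was at −0.60 in DIO-HFD relative to CON-LFD (limma unadjusted P = 0.0678) and at 0.13 for DIO-VSG minus DIO-HFD, and without CON-LFD replicate 2 the former was −0.73 (limma unadjusted P = 0.0537). The difference between DIO-VSG and DIO-LFD had an unadjusted P value below 0.05 in 6 of the 16 fits without 1 library, the lowest 0.0195 without DIO-VSG replicate 4. Of the 10 other alternatives 1 gave such a P value, and the estimate lay between −0.67 and −0.32. The differences from CON-LFD were −0.47 (95% CI −1.15 to 0.21) in DIO-VSG and 0.20 (95% CI −0.48 to 0.88) in DIO-LFD. Under the 10 other alternatives they lay between −0.47 and −0.075 and between 0.039 and 0.43.

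Of the 2 LXR genes, one varied between libraries and the other hardly did. Nr1h3 (chr2:91184061-91202834, minus strand, protein coding) had normalized counts of 2854, 3522, 2359 and 3218 in CON-LFD, 1825, 2729, 2568 and 2514 in DIO-HFD, 5794, 2929, 2609 and 3109.7 in DIO-LFD, and 2141, 2295, 2753 and 2514 in DIO-VSG. DIO-LFD replicate 1 stood above all other libraries, and the other values overlapped between groups. The log2 fold change was 0.52 (SE 0.22, 95% CI 0.06 to 0.99, limma unadjusted P = 0.0296, adjusted P = 0.533) in DIO-LFD relative to DIO-HFD. It was −0.50 (SE 0.22, 95% CI −0.97 to −0.04, limma unadjusted P = 0.0355, adjusted P = 0.509) for DIO-VSG minus DIO-LFD. Without DIO-LFD replicate 1 the former was 0.27 and the latter −0.25, and neither kept an unadjusted P value below 0.05. The former also lost it without DIO-HFD replicate 1 (0.40), and the latter without DIO-VSG replicate 1 (−0.45), 2 (−0.48) or 4 (−0.52). At the same estimate of 0.52, the former had an unadjusted P value of 0.0757 with only these groups in the fit and of 0.0505 with a replicate block. In DIO-HFD relative to CON-LFD it was −0.31 (SE 0.22, limma adjusted P = 0.581), with −0.18 without DIO-HFD replicate 1, −0.17 with voom and −0.099 with an adipocyte marker score as a term, and in DIO-VSG relative to DIO-HFD 0.02 (SE 0.22). Relative to CON-LFD, it was −0.29 (95% CI −0.76 to 0.17) in DIO-VSG and 0.21 (95% CI −0.25 to 0.68) in DIO-LFD. Nr1h2 (chr7:44549616-44553951, minus strand, protein coding), the more widely expressed of the receptors, stayed between 3435 and 4068 normalized counts in the 16 libraries, with group means from 3729 ± 125 in DIO-VSG to 3963 ± 187 in DIO-LFD. Its log2 fold change in DIO-HFD relative to CON-LFD was 0.04 (95% CI −0.12 to 0.19), an interval that excludes differences as large as those estimated for Srebf1 and Mlxipl.

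Among the regulators of SREBP processing, Insig1, itself a target of SREBP, varied widely, Insig2 less and Scap hardly at all. Insig1 (chr5:28071363-28078662, plus strand, protein coding) held 12088, 14285, 3260.1 and 11432 normalized counts in CON-LFD and 2559, 5437, 8856 and 3961 in DIO-HFD. DIO-LFD libraries were at 3662, 11399.7, 5718 and 21950.5, and DIO-VSG libraries at 4738, 6359.9, 17819 and 9260.2. The groups overlapped in every comparison, and the SD was 47% of the mean in CON-LFD and 76.7% in DIO-LFD. The log2 fold change of Insig1 was −0.93 (SE 0.61, 95% CI −2.24 to 0.38, limma adjusted P = 0.551) in DIO-HFD relative to CON-LFD. Relative to DIO-HFD, it was 0.84 (SE 0.61, limma adjusted P = 0.493) in DIO-VSG and 0.86 (SE 0.61, limma adjusted P = 0.794) in DIO-LFD. Single libraries moved these values, to −1.42 without CON-LFD replicate 3 (limma unadjusted P = 0.0303), 0.48 without DIO-VSG replicate 3 and 0.40 without DIO-LFD replicate 4. These estimates were of the size of those of Srebf1 with a larger standard error, 0.61 against 0.19, and a difference of this size in Insig1 was not detectable with 4 libraries per group.

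Scap (chr9:110333288-110384950, plus strand, protein coding) lay between 3563 and 3635 normalized counts in DIO-HFD, between 3567 and 3669 in DIO-LFD, between 3314 and 3825 in CON-LFD and between 3140.1 and 3736 in DIO-VSG. Its log2 fold changes were 0.04 (95% CI −0.11 to 0.18) in DIO-HFD relative to CON-LFD, −0.04 (95% CI −0.19 to 0.11) for DIO-VSG minus DIO-HFD and 0.0064 (95% CI −0.14 to 0.16) for DIO-LFD minus DIO-HFD. Insig2 (chr1:121304353-121332589, minus strand, protein coding) had nearly equal group means, from 2327 ± 591 in DIO-HFD to 2389 ± 219 in DIO-LFD. The DIO-HFD libraries were the most spread, at 1710.0, 2718, 2936 and 1946, and held both the lowest and the highest value of all 16. The log2 fold change of Insig2 was −0.04 (95% CI −0.35 to 0.28) in DIO-HFD relative to CON-LFD, 0.04 (95% CI −0.27 to 0.35) for DIO-VSG minus DIO-HFD and 0.07 (95% CI −0.25 to 0.38) for DIO-LFD minus DIO-HFD.

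Thrsp (chr7:97412938-97417730, minus strand, protein coding) had the largest differences of the set in all 3 comparisons with DIO-HFD. Its normalized counts were 1228, 3036, 2020.2 and 5863 in DIO-HFD and 22273, 16130.1, 8449 and 16363 in CON-LFD, with no overlap. DIO-LFD libraries held 2469.7, 41209.7, 12506 and 32407, and DIO-VSG libraries 5539.9, 30745, 25534 and 19734. Each of these groups had 3 libraries above all DIO-HFD libraries and 1 within the DIO-HFD range, replicate 1 in both. The mean was 3037 ± 2024 (SD, n = 4) in DIO-HFD relative to 15804 ± 5667 in CON-LFD, 5.79-fold lower on the fitted scale (log2 fold change −2.53, SE 0.79, 95% CI −4.23 to −0.84, limma unadjusted P = 0.00632, adjusted P = 0.246). Relative to DIO-HFD it was 2.73 (SE 0.79, 95% CI 1.03 to 4.43, limma unadjusted P = 0.00383, adjusted P = 0.259) on the log2 scale in DIO-VSG and 2.47 (SE 0.79, 95% CI 0.77 to 4.16, limma unadjusted P = 0.00748, adjusted P = 0.456) in DIO-LFD. The exact permutation P values for these 3 differences were 0.0286, 0.0571 and 0.0857. Between the low-fat fed groups the log2 fold change was 0.20 in DIO-VSG relative to CON-LFD, −0.07 in DIO-LFD relative to CON-LFD and 0.26 in DIO-VSG relative to DIO-LFD, each with a standard error of 0.79, so differences of severalfold were not detectable there.

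Mid1ip1 (chrX:10715013-10719690, plus strand, protein coding), the relative of Thrsp, varied much less. Group means were 1388 ± 287 in CON-LFD, 1288 ± 117 in DIO-HFD, 1628 ± 543 in DIO-LFD and 1268 ± 159 in DIO-VSG. DIO-LFD replicate 4, at 2336, was the highest library and DIO-HFD replicate 1, at 1124, the lowest. The log2 fold change was −0.09 (95% CI −0.52 to 0.34) in DIO-HFD relative to CON-LFD, −0.03 (95% CI −0.45 to 0.40) for DIO-VSG minus DIO-HFD and 0.28 (95% CI −0.14 to 0.71) for DIO-LFD minus DIO-HFD. The last of these was 0.091 without DIO-LFD replicate 4 and 0.39 with library weights (limma unadjusted P = 0.0187, adjusted P = 0.108). The interval of the first comparison does not reach the estimate for Thrsp, −2.53.

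Counted over the set, 0 of the 9 genes had a limma-trend adjusted P value below 0.05 in any of the 6 comparisons. The share of all genes that did so was 0.0377% in DIO-HFD relative to CON-LFD, 0.00471% in DIO-LFD relative to CON-LFD and 0% in the 4 others. At an unadjusted P value below 0.05, 3 of the 9 (Srebf1, Mlxipl and Thrsp) were lower in DIO-HFD than in CON-LFD, against 12.9% of all genes in either direction. In DIO-VSG relative to DIO-HFD 2 were higher (Srebf1 and Thrsp, against 13.2% of genes). Relative to the same group, 4 were higher in DIO-LFD (Srebf1, Mlxipl, Nr1h3 and Thrsp, against 8.53% of genes). With voom on recovered reads these counts were also 3, 2 and 4 and no gene of the set passed the adjusted threshold. Only Nr1h3 was below 0.05 in DIO-VSG relative to DIO-LFD (9.71% of genes), and none was in DIO-VSG relative to CON-LFD (17.8%) or in DIO-LFD relative to CON-LFD (6.26%). Values lay wholly below those of CON-LFD in DIO-HFD for 3 of the 9 (Srebf1, Mlxipl and Thrsp) and for 3% of all genes. They lay wholly above those of DIO-HFD in DIO-VSG for Srebf1 (2.37% of genes) and in DIO-LFD for Srebf1 and Mlxipl (3.01% of genes). The comparisons with DIO-HFD share its 4 libraries, so they are not independent of each other.

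**Figure D2:**
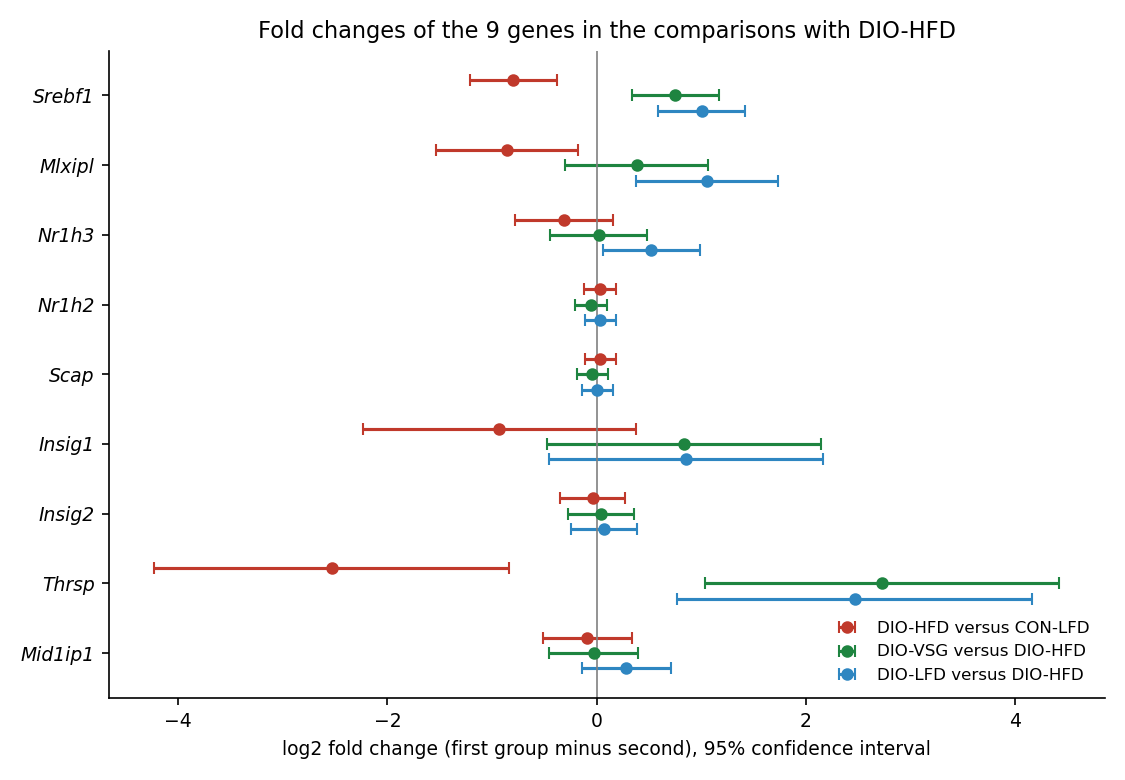
Log2 fold changes (horizontal axis, first group minus second) with 95% confidence intervals from limma-trend for the 9 genes in the 3 comparisons with DIO-HFD. The intervals of Srebf1 and Thrsp exclude 0 in all 3 and those of Nr1h2 and Scap are narrow around 0, before adjustment over genes.

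The lipogenic enzymes that these factors drive had the same direction as Srebf1 and Thrsp. Of 17 listed genes of fatty acid synthesis, 16 had lower estimates in DIO-HFD than in CON-LFD and 10 had an unadjusted P value below 0.05, all lower. Over all genes tested, 47.25% had lower estimates in DIO-HFD relative to CON-LFD, 47.53% for DIO-VSG against DIO-HFD and 48.44% for DIO-LFD against DIO-HFD, and the shares below 0.05 were 12.9%, 13.2% and 8.53%, against which the counts of this and the next lists stand. The median log2 fold change of the list was −1.52, beside 0.02 over all genes tested. In DIO-VSG relative to DIO-HFD, 15 of 17 were higher, 9 of them at an unadjusted P value below 0.05, with a median of 1.53 beside 0.02 over all genes. In DIO-LFD relative to DIO-HFD, 17 of 17 were higher and 11 below 0.05, with a median of 1.74 beside 0.0088. None of the 17 passed the adjusted threshold in any of these. Fasn, fatty acid synthase, was at 22337 ± 10446 normalized counts in DIO-HFD, against 257607 ± 161379 in CON-LFD, with a fitted log2 difference of −3.42 (SE 1.02, limma adjusted P = 0.237). Elovl6, a fatty acid elongase, stood at −3.12 on the log2 scale (SE 1.11, limma adjusted P = 0.267) in the same comparison. The acetyl-CoA carboxylases Acaca and Acacb, the enzymes whose partner is encoded by Mid1ip1, had values of −2.46 (SE 0.59, limma adjusted P = 0.176) and −2.12 (SE 0.67, limma adjusted P = 0.246). The list was drawn up with results of these libraries known, so its direction is not independent evidence.

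Other pathway lists did not move with it as a whole. Of 7 ChREBP target genes tested (9 listed), 4 were lower in DIO-HFD than in CON-LFD, 2 of them at an unadjusted P value below 0.05, and the median log2 fold change was −0.03. These were Gpd1, glycerol-3-phosphate dehydrogenase (log2 fold change −2.02, SE 0.59, limma adjusted P = 0.227), and Tkt, the transketolase of the pentose phosphate pathway (−1.41, SE 0.55, limma adjusted P = 0.304). Both were higher in DIO-VSG (2.02 and 1.90) and in DIO-LFD (2.15 and 1.83) than in DIO-HFD at an unadjusted P value below 0.05. Arrdc4, another gene of the list, had a log2 fold change of 0.15 in DIO-HFD relative to CON-LFD, and Fgf21, at 37.6 ± 23.0 normalized counts in DIO-HFD and 20.7 ± 11.1 in CON-LFD, one of 0.73 (SE 0.65).

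Of 8 LXR target genes tested (10 listed, 9 of them in the table), 4 were lower and 4 higher in DIO-HFD than in CON-LFD, with a median of −0.03. Apoc1, an apolipoprotein gene (−0.91, SE 0.39, limma adjusted P = 0.350), and Lpcat3, a phospholipid-remodelling acyltransferase (−0.56, SE 0.19, limma adjusted P = 0.263), were lower at an unadjusted P value below 0.05. Pltp (0.45) and the cholesterol exporter Abcg1 (0.39) had higher estimates. Relative to DIO-HFD, the LXR list had medians of −0.07 in DIO-VSG (2 of 8 higher) and −0.05 in DIO-LFD (3 of 8 higher), with 1 gene higher and 1 lower at an unadjusted P value below 0.05 in the former and 2 higher in the latter. Lpcat3 was at 0.43 (limma unadjusted P = 0.0442) and 0.69 (limma unadjusted P = 0.00306), Pltp at −0.88 (limma unadjusted P = 0.0367) and −0.54, Apoc1 at −0.07 and 1.01 (limma unadjusted P = 0.0223), and Abcg1 at −0.06 and −0.14.

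Of 19 genes of the SREBP-2 cholesterol pathway, 10 were lower and 9 higher in DIO-HFD than in CON-LFD, with a median of −0.02. Stard4, a sterol carrier gene, was higher (0.55, SE 0.14, limma unadjusted P = 0.00175, adjusted P = 0.200), and Nsdhl (−0.79, SE 0.41) and Pmvk (−0.52, SE 0.26) had unadjusted P values above 0.05. Medians relative to DIO-HFD were 0.07 in DIO-VSG (2 of 19 higher at an unadjusted P value below 0.05) and 0.14 in DIO-LFD (2 higher and 1 lower).

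Few genes of the machinery around the factors had small P values. Of 9 genes of SREBP processing and turnover, none had an unadjusted P value below 0.05 in DIO-HFD relative to CON-LFD, and the median log2 fold change was 0.05. Srebf2, the gene of SREBP-2, had an estimate of 0.32 (SE 0.17, limma adjusted P = 0.437), Rnf145 0.24, Mbtps2, a protease that releases SREBP, −0.11 and Erlin2 −0.10. In DIO-VSG relative to DIO-HFD 1 of the 9 was below 0.05, Mbtps1, the other protease (−0.25, SE 0.07, limma adjusted P = 0.257), and in DIO-LFD none was. Of 9 partners and corepressors of the factors, none was below 0.05 in DIO-HFD relative to CON-LFD or in DIO-LFD relative to DIO-HFD, and among those below 0.05 in DIO-VSG relative to DIO-HFD, Mlx was higher (0.24) and Rxra lower (−0.31). The estimates in DIO-HFD relative to CON-LFD were −0.14 for Rxrg, 0.12 for Ncor1, 0.11 for Usf1 and −0.10 for Usf2.

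**Figure D3:**
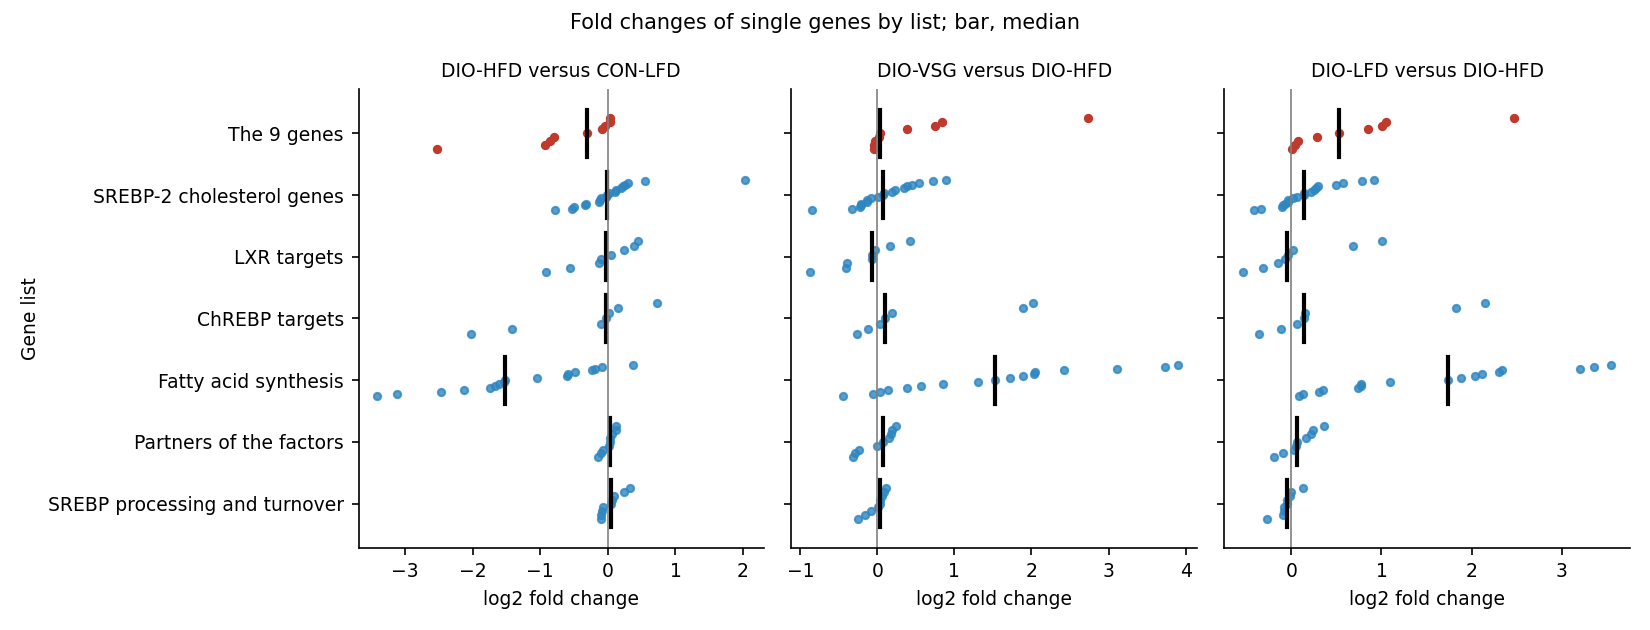
Log2 fold changes (horizontal axes) of single genes in 6 pathway lists and in the set of 9 genes, for the 3 comparisons with DIO-HFD, with black bars for the medians. The list of fatty acid synthesis lies apart from the others, with medians of −1.52, 1.53 and 1.74.

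Across the 16 libraries, several of the 9 genes varied together, and no batch is given in the labels within which to repeat this. On log2(normalized count + 1), Srebf1 was correlated with Thrsp (Pearson's r = 0.87, permutation P = 1e-05, the smallest that 100000 resamples can give, adjusted P = 0.00045 over 45 relations; Spearman's rho = 0.81, permutation P = 0.00031). With group means removed r was 0.77, and without the 2 libraries farthest from the median of Srebf1, DIO-HFD replicates 1 and 3, it was 0.76. Srebf1 and Mlxipl had r = 0.81 (permutation P = 0.00015, adjusted P = 0.00169, rho = 0.70, permutation P = 0.0031), with 0.72 after removal of group means and 0.73 without the same libraries. Srebf1 and Insig1 had r = 0.72 (permutation P = 0.00182, adjusted P = 0.0117, rho = 0.76, permutation P = 0.0011), with 0.77 after removal of group means and 0.76 without those libraries. Insig1 and Thrsp had r = 0.72 (permutation P = 0.0022, adjusted P = 0.0124, rho = 0.74, permutation P = 0.00177), which became 0.66 and 0.59.

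Mlxipl had a higher r with Nr1h3 than with Thrsp. For Mlxipl and Nr1h3 r was 0.78 (permutation P = 0.00026, adjusted P = 0.00195, rho = 0.80, permutation P = 0.00022), with 0.66 after removal of group means and 0.67 without the libraries farthest from the median, DIO-HFD replicate 1 and DIO-VSG replicate 1. For Mlxipl and Thrsp r was 0.52 (permutation P = 0.0406, adjusted P = 0.152, rho = 0.41, permutation P = 0.114), with 0.28 after removal of group means and 0.26 without the same libraries. The difference between these correlations was not tested. The 5 pairs with r above 0.7 were the pairs of members with an adjusted P value below 0.05 for Pearson's r, and neither Nr1h2, Scap, Insig2 nor Mid1ip1 was in any of them. By Spearman's rho Srebf1 and Nr1h3 also passed (rho = 0.63, permutation P = 0.00997, adjusted P = 0.0499), with an r of 0.45 (permutation P = 0.0757, adjusted P = 0.227) that was 0.26 without DIO-HFD replicates 1 and 3. With the mean of the 17 fatty acid synthesis genes, r was 0.92 for Thrsp (permutation P = 2e-05, adjusted P = 0.00045, rho = 0.90, permutation P = 3e-05), 0.88 for Srebf1 (permutation P = 3e-05, adjusted P = 0.00045, rho = 0.80, permutation P = 0.00037) and 0.82 for Insig1 (permutation P = 0.0002, adjusted P = 0.0018, rho = 0.79, permutation P = 0.00056). Without the 2 libraries farthest from the median of each gene these became 0.91, 0.84 and 0.72. For Mlxipl r was 0.61 (permutation P = 0.0129, adjusted P = 0.0645, rho = 0.53, permutation P = 0.0394). It was 0.50 for Mid1ip1 (permutation P = 0.047, adjusted P = 0.163, rho = 0.43, permutation P = 0.102). For Nr1h3 it was 0.21 (permutation P = 0.466, adjusted P = 0.723, rho = 0.39, permutation P = 0.136). Without the 2 farthest libraries of each gene these became 0.37, 0.30 and 0.44. With group means removed they were 0.41, 0.56 and −0.10.

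**Figure D4:**
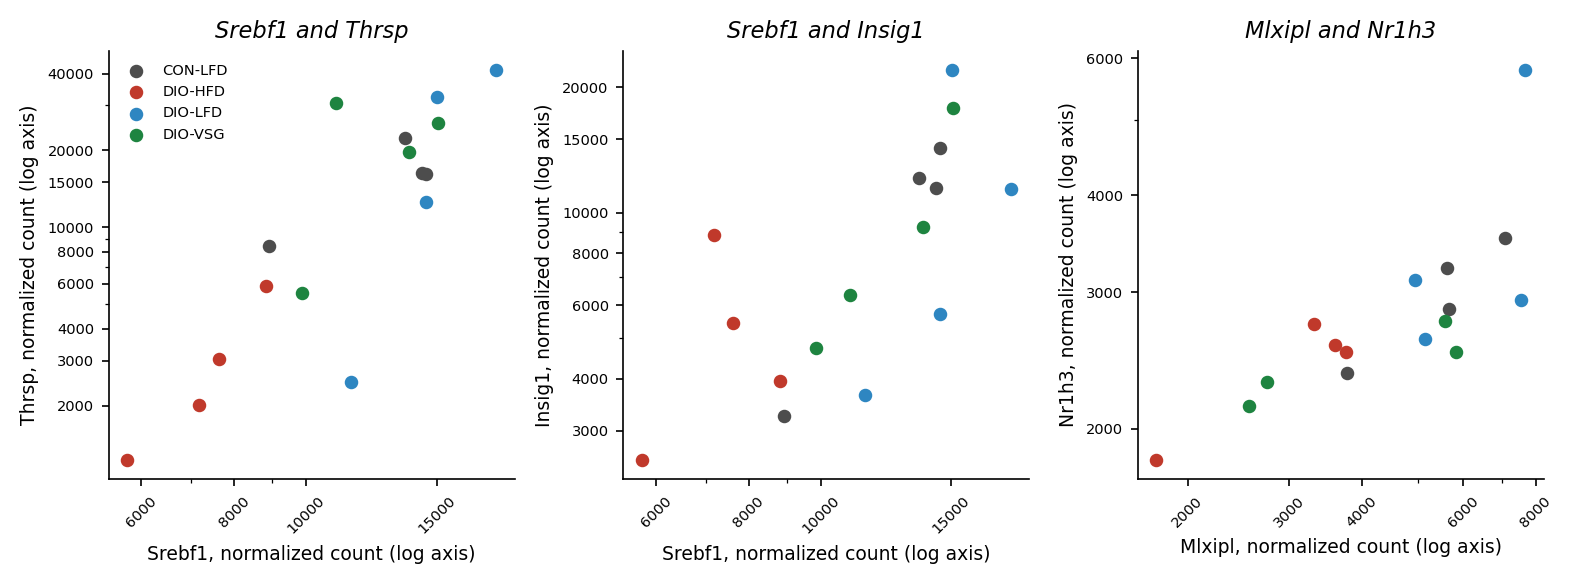
Normalized counts of 3 pairs of genes in the 16 libraries (log axes, 1 point per library, coloured by group). The points lie along a rising line for Srebf1 with Thrsp (r = 0.87) and Insig1 (r = 0.72) and for Mlxipl with Nr1h3 (r = 0.78).

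**Figure D5:**
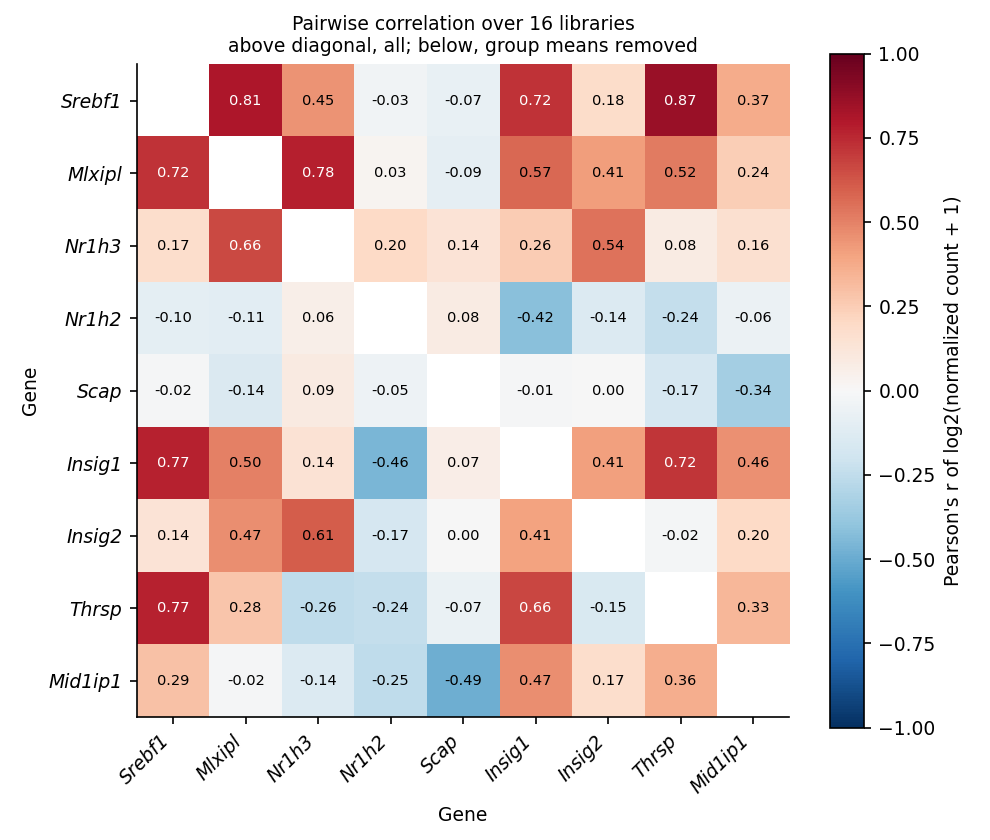
Pearson's r between the 9 genes over the 16 libraries, on log2(normalized count + 1), with all libraries above the diagonal and with group means removed below it. Above the diagonal, r among Srebf1, Mlxipl, Insig1 and Thrsp lies between 0.52 and 0.87.

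The genes most like each member were taken as the 3 with the highest r over the 16 libraries, among 13302 named genes with a mean of at least 100 normalized counts. Those of Thrsp were Fasn (r = 0.96), Elovl6 (0.94) and Parm1 (0.94), 2 of them enzymes of fatty acid synthesis. For Srebf1 they were Atp5k (0.93), a subunit gene of ATP synthase, Nat8l (0.93), which makes N-acetylaspartate, and Uros (0.92), an enzyme of heme synthesis. For Mlxipl they were Adck4 (0.93), Gys1 (0.92), the glycogen synthase, and Hk2 (0.92), a hexokinase. Nr1h3 was most like Pnpla2 (0.93), the main triglyceride lipase of adipocytes, Abhd5 (0.93), its coactivator, and Lrrc58 (0.93). Insig1 was most like Cisd3 (0.95), Ropn1l (0.95) and Mtch2 (0.93), and Insig2 like Marc2 (0.92), Fyttd1 (0.92) and Rer1 (0.92). For the flat genes the highest values were lower, 0.82 for Nr1h2 (Leng8, then Arl10 and Tnip2) and 0.81 for Scap (Trim62, then Zfp202 and Zxda), and for Mid1ip1 they were 0.88 (Zeb2os), 0.84 (Ebp) and 0.84 (Tlcd2). These values are descriptive, since the libraries also share their cell mixture.

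The mixture of cells differed between libraries. All 10 adipocyte markers and all 10 mammary epithelial markers had reads in every library. Of the adipocyte markers, 9 of 10 had lower estimates in DIO-HFD than in CON-LFD (median log2 fold change −0.48, none at an unadjusted P value below 0.05). Relative to DIO-HFD, 9 of 10 were higher in DIO-LFD (median 0.40, 1 below 0.05). In DIO-VSG 6 of 10 were higher and 4 lower (median 0.0033, 1 of the lower below 0.05). Each list was scored per library by centring every marker on its own 16-library average (log2) and averaging the markers. Adipocyte scores ranged from −0.22 to 0.58 in CON-LFD, −1.09 to 0.38 in DIO-HFD, −0.09 to 0.72 in DIO-LFD and −0.59 to −0.06 in DIO-VSG. DIO-HFD replicate 1, the lowest, was also the lowest library for Srebf1, Mlxipl, Nr1h3, Insig1, Insig2, Thrsp and Mid1ip1. DIO-LFD replicate 1, the highest, was the highest for Nr1h3, Mlxipl and Nr1h2. Within DIO-LFD, however, it was the lowest library for Srebf1 (11485 normalized counts), Insig1 (3662) and Thrsp (2469.7). CON-LFD replicate 3, the lowest CON-LFD library for Srebf1, Mlxipl, Nr1h3, Insig1 and Thrsp, had the lowest adipocyte score of its group and, with 1.98, the highest B cell score. With the adipocyte score as a term in the limma fit, the log2 fold change in DIO-HFD relative to CON-LFD was −0.72 for Srebf1 (unadjusted P = 0.00293), −2.63 for Thrsp (unadjusted P = 0.0088) and −0.58 for Mlxipl (unadjusted P = 0.0373), and that of Nr1h3 in DIO-LFD relative to DIO-HFD was 0.35 (unadjusted P = 0.0300).

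Lymphocyte markers, all of them with reads in every library, also varied, and unevenly between groups. B cell scores lay between −5.83 and 1.98 in CON-LFD, −4.54 and 2.38 in DIO-HFD, −0.07 and 1.11 in DIO-LFD and 1.83 and 2.06 in DIO-VSG, and T cell scores between −3.33 and 1.62, −3.53 and 2.16, −0.31 and 0.74, and 1.41 and 2.02. Summed B cell markers were at 302 to 71345 normalized counts in CON-LFD, 1049.9 to 94608 in DIO-HFD, 17320 to 38894 in DIO-LFD and 63721 to 74415 in DIO-VSG. With a lymphocyte score as a term, the log2 fold change of Srebf1 was −0.75 in DIO-HFD relative to CON-LFD (unadjusted P = 0.00129), 0.88 for DIO-VSG minus DIO-HFD (unadjusted P = 0.000719) and 1.06 for DIO-LFD minus DIO-HFD (unadjusted P = 6.43e-05). Mlxipl then stood at 0.66 for DIO-VSG minus DIO-HFD (unadjusted P = 0.0508), and at 0.19 in the fit with library weights. With the lymphocyte score Insig1 reached 1.41 (SE 0.59) in DIO-VSG relative to DIO-HFD, with an unadjusted P value of 0.0321 and a limma adjusted P value of 0.436, and Insig2 reached 0.24 (SE 0.10), with an unadjusted P value of 0.0282 and a limma adjusted P value of 0.423.

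Markers of thermogenic adipocytes were lower in DIO-HFD, with scores of −3.56 to −1.16, than in CON-LFD, at −0.73 to 3.71, or DIO-LFD, at −0.21 to 1.42, and overlapped with DIO-VSG, at −1.74 to 3.13. Skeletal muscle markers were at −2.68 to −1.36 in DIO-HFD, −1.45 to 3.99 in CON-LFD, −1.44 to 6.10 in DIO-LFD and −2.56 to 3.51 in DIO-VSG. Macrophage markers (0.08 to 0.38 in DIO-HFD and −1.09 to 1.35 in CON-LFD), stromal markers (−0.26 to 0.54 and −0.48 to 1.27) and mammary epithelial markers (−0.95 to 0.30 and −0.23 to 0.78) overlapped between these groups in range. Single epithelial markers moved with Srebf1 and Thrsp, with 10 of 10 lower in DIO-HFD than in CON-LFD (median log2 fold change −0.70, 3 at an unadjusted P value below 0.05) and 8 of 10 higher in DIO-LFD than in DIO-HFD (median 0.67, 6 below 0.05) and in DIO-VSG than in DIO-HFD (median 0.27, 1 below 0.05). In DIO-VSG all 8 macrophage markers (median −0.62, none below 0.05) and all 5 stromal markers (median −0.64, 1 below 0.05) had lower estimates than in DIO-HFD. In DIO-LFD 6 of 8 macrophage markers (median −0.15, 1 below 0.05) and 5 of 5 stromal markers (median −0.37, none below 0.05) did. The part of the thermogenic, muscle, macrophage, stromal and epithelial content in the values of Srebf1, Mlxipl and Thrsp was not tested.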

How the data were processed

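RNA-Seq values of the mammary fat pad opposite to the injected one were analysed in 16 libraries, 4 per group, grouped by the labels. The deposited table, which its description calls normalized counts, holds log2 values made by the authors with the variance-stabilizing transformation of DESeq2. They share a minimum of 5.36 and were inverted exactly to normalized counts, and 100% of the values gave whole reads (tolerance 0.01). The test planned for normalized counts was used on the inverted values. The labels name TopHat2 2.0.7, HTSeq 0.5.3p9 and mm10, whereas the methods name STAR, salmon and GRCm38. Which of these made the table is not given in the sources used here. Libraries held 46907377 to 57610899 reads with size factors of 0.904 to 1.22, and 0 columns were left without a sample. Replicates differed beyond sampling noise, with a chi-square per gene of at least 64.4 between any 2 of a group.

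Genes reaching 10 normalized counts in 4 or more libraries (21218 of 23179) were tested with limma 3.58.1 (limma-trend, R 4.3.3) on log2(normalized count + 1), with all 16 libraries and group as the only term, in 6 comparisons. Fold changes are on that scale. The Benjamini-Hochberg adjustment ran over all genes tested, with a threshold of 0.05, and tests were 2-sided. Exact permutation tests, correlations with 100000 resamples, and motif searches used Python 3.11.15, numpy 2.4.6, pandas 2.3.3, scipy 1.17.1 and matplotlib 3.10.9. Promoter windows came from RefSeq (GRCm38.p6) and gene positions from GENCODE M21 (GRCm38). Same-numbered libraries of different groups had a median r of 0.018 between their deviations, beside −0.0034 for other pairs. Alternatives were another pseudocount, no filter, the values as deposited, quantile normalization, voom, only the groups compared, a replicate block, library weights, a lymphocyte or adipocyte score as a term, and leaving out each library. The limma-trend fit was tested on simulated counts with known changes.

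Named genes were the 9 members, for each pathway list the 4 genes with the largest absolute log2 fold change in DIO-HFD relative to CON-LFD, and for each member the 3 genes with the highest correlation. Genes named beyond these (Mbtps1, Mlx and Rxra) were chosen after their values were seen, and some listed genes are not reported here. The members and lists were chosen with earlier results of these data known.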

Additional observations from a re-analysis of the deposited data

Results flagged for a closer look

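On log2(normalized count + 1), in 5 of 36 sets of 4 libraries (9 genes in 4 groups), the lowest library lay apart from the 3 others by more than the 95% critical value of the Dixon test. Chance gives about 1 in 20. Srebf1 in CON-LFD replicate 3 was at 8923.2 normalized counts, with a gap of 0.865 of the range on the log2 scale, and Insig1 in the same library was at 3260.1. Mlxipl in DIO-HFD replicate 1 was at 1764.6. Nr1h2 in DIO-LFD replicate 4 was at 3682.8 and Insig2 in DIO-VSG replicate 2 at 2168.5, both among narrow groups. On normalized counts, a choice made after seeing the data, 5 sets also passed. Srebf1 (gap 0.835 of the range), Nr1h2 and Insig2 were among them again, whereas Insig1 and Mlxipl were replaced by the highest libraries of Nr1h3 (DIO-LFD replicate 1, at 5794.3) and Mid1ip1 (DIO-VSG replicate 4, at 1503.8).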

How the results depend on the processing

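Fold changes and moderated F tests of single genes kept their direction and side of the threshold in 522 results under an alternative, while 34 turned their sign and 11 came to pass the threshold. The cause was not tested except where fewer samples or genes entered. Srebf1 and Thrsp had an unadjusted P value below 0.05 in each of the 3 comparisons with DIO-HFD under all 16 fits without 1 library and all 10 other alternatives. Library weights, which gave DIO-HFD replicate 4 a weight of 10.9, brought adjusted P values below 0.05 for Srebf1 in all 3 comparisons with DIO-HFD (0.0164, 0.0125 and 0.00639), for Insig1 in DIO-HFD relative to CON-LFD (−1.43, adjusted P = 0.0491) and, relative to DIO-HFD, for Thrsp (1.67, adjusted P = 0.0418) and Insig2 (0.25, adjusted P = 0.0399) in DIO-VSG. They did so too for the moderated F tests of Srebf1 (adjusted P = 0.00588), Insig1 (0.0377), Insig2 (0.0488) and Thrsp (0.0316), and the remaining call was that of Srebf1 in DIO-HFD relative to CON-LFD without CON-LFD replicate 3 (−0.96, adjusted P = 0.040).

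In DIO-HFD relative to CON-LFD, 8 genes in all passed the threshold, and the number was 3 with quantile normalization, 0 with only these groups, 1 with a replicate block, 4196 with library weights, 17 with the lymphocyte score, 31 with the adipocyte score, and from 0 (without CON-LFD replicate 1) to 128 (without CON-LFD replicate 3) when a library was left out. In DIO-VSG relative to DIO-HFD it was 0, but 3739 with weights, 8 with the adipocyte score, and 0 to 1 (without DIO-VSG replicate 2). For DIO-LFD against DIO-HFD it was 0, but 1811 with weights, 11 with the adipocyte score, and 0 to 1 (without DIO-LFD replicate 1). For DIO-VSG against DIO-LFD it was 0, but 1533 with only these groups and 184 with weights. For DIO-VSG against CON-LFD it was 0, but 1 with the values as deposited, 2 with only these groups, 4226 with weights, and 0 to 873 (without CON-LFD replicate 3). For DIO-LFD against CON-LFD it was 1, but 2 with a pseudocount of 8 and with the values as deposited, 0 with voom, with only these groups and with a replicate block, 53 with weights, 6 with the lymphocyte score, and from 0 (without CON-LFD replicate 1) to 6 (without CON-LFD replicate 2). Of the 9 genes, those at an unadjusted P value below 0.05 numbered 5 with weights in the first comparison (3 before), 4 with weights and 4 with the lymphocyte score in the second (2 before), and 7 with weights in the third (4 before).

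Signs turned for these estimates, which take in all 9 genes in the 3 comparisons with DIO-HFD and Srebf1, Mlxipl, Nr1h3 and Thrsp in the 3 others. Between the low-fat fed groups, estimates of Insig1, Insig2, Scap, Nr1h2 and Mid1ip1 turned under some alternatives as well, that of Insig1 reaching 0.68 in DIO-VSG against CON-LFD. In DIO-HFD relative to CON-LFD, Insig2 became 0.10 with voom, 0.034 with the lymphocyte score and 0.11 with the adipocyte score, and ranged from −0.16 to 0.097 when a library was left out. Mid1ip1 became 0.052 with voom and ranged from −0.17 to 0.038, and Nr1h2 ranged from −0.0086 to 0.078. In DIO-VSG against DIO-HFD, Nr1h3 became −0.013 with voom and −0.028 with weights, with a range of −0.11 to 0.086, and Mid1ip1 became 0.020 with the lymphocyte score, with its highest value without a library at 0.017 and its lowest at −0.11. Scap ranged from −0.071 to 0.012 and Insig2 from −0.097 to 0.16. In DIO-LFD against DIO-HFD, Nr1h2 became −0.047 with voom and −0.0015 with weights (range −0.0059 to 0.071), Scap −0.077 with voom and −0.0012 with weights, and Insig2 −0.014 with voom and −0.057 with the adipocyte score (range −0.067 to 0.19). In DIO-VSG against DIO-LFD, Thrsp became −0.12 with weights and ranged from −0.58 without DIO-LFD replicate 1 to 0.81. In DIO-VSG against CON-LFD, Srebf1 became 0.035 with quantile normalization, 0.067 with voom, 0.13 with the lymphocyte score and 0.073 with the adipocyte score (range −0.21 to 0.061), Nr1h3 0.020 with the adipocyte score, and Thrsp −0.14 with weights (range −0.084 without DIO-VSG replicate 2 to 0.74). In DIO-LFD against CON-LFD, Nr1h3 ranged from −0.040 to 0.34 and Thrsp from −0.58 to 0.78, both turning without DIO-LFD replicate 1.

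The replicate numbers gave no clear sign of pairing. Deviations of the 24 same-numbered pairs of libraries had a median r of 0.018 (range −0.609 to 0.534), beside −0.0034 for other pairs. Of the same-numbered pairs 9 were above 0.1, and 7 of 16 libraries correlated best with a library of their own number. Whether these counts exceed chance was not tested. With the number as a replicate block, Srebf1 had adjusted P values of 0.255, 0.336 and 0.256 in the 3 comparisons with DIO-HFD, and 3, 2 and 3 of the 9 genes were below an unadjusted 0.05, Nr1h3 being the one lost (0.0505). Each of the 9 genes had at least 1092 reads in every library, and counting error was at least as large as the spread only for Scap in DIO-HFD and DIO-LFD.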
